A study of Mus musculus with 24 samples.

Results

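Interferon-inducible GTPases are enzymes that hydrolyse GTP and are among the most strongly induced products of interferon signalling, and 10 of them were followed here in isolated mouse hepatocytes. They were taken by gene symbol from the count table, which lists 55421 genes, and comprised the guanylate-binding proteins Gbp2, Gbp3, Gbp6 and Gbp7 and the immunity-related GTPases Igtp, Irgm1, Irgm2, Iigp1, Tgtp1 and Tgtp2. All 10 were among the 13583 genes that passed the filter on low counts. The hepatocytes came from 24 male mice in 4 groups of 6, namely young mice on normal diet (YND), young mice on high-fat diet (YHFD), old mice on normal diet (OND) and old mice on high-fat diet (OHFD). The labels give the young mice as 6 months old C57BL/6N and the old mice as 24 months old C57BL/6J, so that a difference between young and old cannot be told apart from one between the substrains. The diets were fed for 9 weeks, and 60% of the energy of the high-fat diet came from fat. Polyadenylated RNA was sequenced in 2 batches, each holding 3 mice of every group except OND, of which 2 were in batch 1 and 4 in batch 2. Total counts ranged from 9200332 in an OHFD mouse to 22185069 in a YND mouse.

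Guanylate-binding proteins and immunity-related GTPases are made when type II interferon (interferon gamma) or type I interferon binds its receptor, JAK kinases phosphorylate STAT proteins, and STAT and IRF complexes bind short sites near the transcription start. The proteins then gather on the vacuoles of intracellular pathogens, a step that uses the ATG8 conjugation proteins of autophagy, and some guanylate-binding proteins promote inflammasome activation. Among the immunity-related GTPases, Irgm1, Irgm2 and Igtp (also called Irgm3) are the GMS-type regulators that sit on the membranes of the cell, whereas Iigp1, Tgtp1 and Tgtp2 are GKS-type effectors that load onto vacuoles. In liver both hepatocytes and non-parenchymal cells can make these proteins after interferon exposure.

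Gbp7, Gbp3 and Gbp2 lie in that order on the plus strand of chromosome 3 (GRCm38, at 142530342 to 142550149, 142560026 to 142573209 and 142620602 to 142638008), and Gbp6 lies on the minus strand of chromosome 5 at 105270702 to 105293698. Irgm1, Tgtp1 and Tgtp2 are on the minus strand of chromosome 11 at 48861968 to 48871683, 48985327 to 48994172 and 49057194 to 49064206. Igtp and Irgm2 are on its plus strand at 58199556 to 58207591 and 58199618 to 58222782, and their annotated spans overlap.

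RefSeq promoters were available for 8 members, and the 110 bases before the start are shown because they hold the sites through which interferon signalling is known to act. Capitals mark GAAANNGAAA, the core of the interferon-stimulated response element (ISRE), and TTCNNNGAA, the gamma-activated site (GAS), each searched on both strands.
Gbp2, chr3:142620553-142620662, plus strand: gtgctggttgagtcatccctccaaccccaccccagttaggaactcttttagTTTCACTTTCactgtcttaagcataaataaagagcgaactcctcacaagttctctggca
Gbp3, chr3:142559934-142560043, plus strand: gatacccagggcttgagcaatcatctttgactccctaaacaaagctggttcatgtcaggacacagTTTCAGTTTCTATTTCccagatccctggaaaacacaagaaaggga
Gbp7, chr3:142530226-142530335, plus strand: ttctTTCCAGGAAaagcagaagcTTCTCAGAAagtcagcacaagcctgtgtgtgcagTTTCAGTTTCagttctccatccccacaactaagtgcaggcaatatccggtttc
Igtp, chr11:58199446-58199555, plus strand: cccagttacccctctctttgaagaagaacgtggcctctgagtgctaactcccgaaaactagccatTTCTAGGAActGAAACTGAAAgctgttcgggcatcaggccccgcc
Irgm1, chr11:48871421-48871530, minus strand: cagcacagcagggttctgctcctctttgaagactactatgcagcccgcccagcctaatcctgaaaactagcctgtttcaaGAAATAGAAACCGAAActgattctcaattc
Irgm2, chr11:58214867-58214976, plus strand: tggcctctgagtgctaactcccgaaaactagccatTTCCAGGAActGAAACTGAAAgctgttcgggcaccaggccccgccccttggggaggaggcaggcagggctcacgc
Tgtp1, chr11:48992247-48992356, minus strand: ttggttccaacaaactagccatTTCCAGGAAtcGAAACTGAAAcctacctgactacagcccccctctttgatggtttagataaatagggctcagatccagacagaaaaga
Tgtp2, chr11:49064213-49064322, minus strand: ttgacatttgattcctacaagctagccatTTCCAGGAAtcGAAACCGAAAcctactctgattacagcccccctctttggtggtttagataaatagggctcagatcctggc

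All 8 members had the ISRE core within 100 bases before the start, where 1.07% of the 32851 RefSeq promoters had it, and 3.44% of the promoters had it anywhere in their 300 bases. Gbp3 has a further promoter entry with no match, and in Gbp3 and Irgm1 a pair of cores overlapped. The GAS core was present in 5 of the 8 members (Gbp7, Igtp, Irgm2, Tgtp1 and Tgtp2), compared with 8.3% of all promoters. In Igtp, Irgm2, Tgtp1 and Tgtp2 the GAS core was followed after 2 bases by the ISRE core, and over the 27 bases that start 6 bases before the GAS core these members were identical at 23 to 26 positions.
Igtp: agccatTTCTAGGAActGAAACTGAAA
Irgm2: agccatTTCCAGGAActGAAACTGAAA
Tgtp1: agccatTTCCAGGAAtcGAAACTGAAA
Tgtp2: agccatTTCCAGGAAtcGAAACCGAAA
The matches describe letters in these windows and no binding was measured.

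Some members share much of their transcript with another gene. The longest coding transcripts of Tgtp1 and Tgtp2 were 99.8% identical over 2810 aligned bases, and 91.4% and 90.6% of their 50-base stretches also occur in another gene, so that the split of counts between them is uncertain. Likewise, 90.2% of the 50-base stretches of Gbp6 occur in Gm43302, which the annotation places over it on the same strand. For the other members this share was between 0.995% (Irgm1) and 12.8% (Gbp7).

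Levels differed widely among the members. Iigp1 lies apart from the others, on the plus strand of chromosome 18 at 60376027 to 60392634. On the FPKM scale, which divides by transcript length, Iigp1 was the most abundant member in every group, with 16.8 ± 2.43 in YND, 22.4 ± 5.58 in YHFD, 24.7 ± 7.77 in OND and 29.2 ± 5.37 in OHFD (SD, n = 6). Irgm1 and Igtp followed, at 5.48 ± 0.954 and 2.95 ± 0.841 FPKM in YND and 10.8 ± 3.35 and 10.7 ± 3.02 FPKM in OHFD, and these neighbours overlapped between mice in all 4 groups. In YND every mouse had less Irgm1 than any mouse had Iigp1, and the same held for Irgm2 below Igtp, Gbp7 below Irgm2 and Gbp6 below Gbp7, whereas Gbp6, Tgtp1, Gbp3, Gbp2 and Tgtp2, at 0.16 down to 0.0632 FPKM, overlapped from neighbour to neighbour. In OHFD the FPKM level of Gbp3 was 3.12 ± 1.81, beside 3.13 ± 0.752 for Irgm2, and it ranked 5 of the 10 members where it had ranked 8 in YND. The place of Irgm1 depended on the length used, since by CPM per kilobase of exons it came after Igtp and Irgm2 in all 4 groups.

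**Figure D1:**
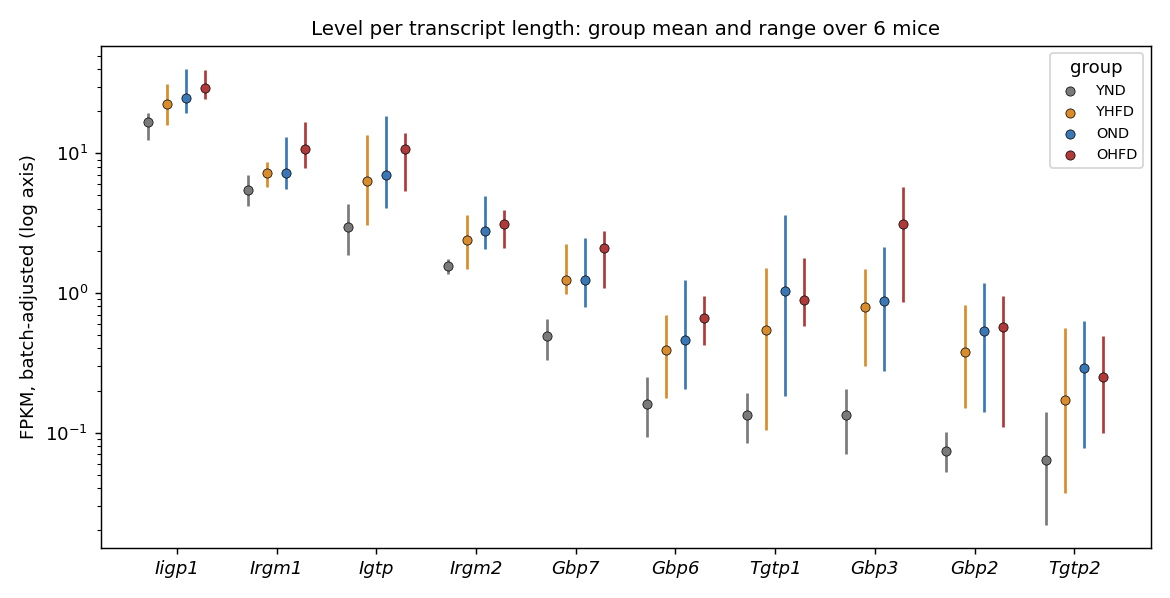
Batch-adjusted FPKM of the 10 GTPases on a log axis, with a point for the mean and a line from the lowest to the highest of 6 mice per group (a mouse listed at 0 for Tgtp2 in OND is left off the line). Iigp1 lay highest in all groups, at 16.8 FPKM in YND and 29.2 in OHFD, and Tgtp2 lay lowest.

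Age was examined first on normal diet. In hepatocytes of OND compared with YND mice, 7 of the 10 GTPases rose (Gbp2, Gbp3, Gbp6, Gbp7, Igtp, Irgm2 and Tgtp1), and none fell. The median log2 fold change of the 10 members was 1.52, beside 0.01 over all tested genes, and 7.26% of all tested genes rose by the same test (edgeR quasi-likelihood, Benjamini-Hochberg adjusted p under 0.05 over all genes). The count of members called fell to 4 without OND mouse 3, and to 0 without the 4 mice richest in macrophage marker RNA, described further on, although all 10 log2 fold changes stayed positive there. The genes called in either direction, members included, numbered 1155 with all mice, 824 without OND mouse 3 and 94 without the 4 mice.

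Among the guanylate-binding proteins, Gbp2 had 0.963, 1.18 and 1.6 CPM (lowest, median and highest of 6 mice) in YND and 1.43, 9.2 and 20.1 CPM in OND. The lowest OND mouse lay inside the YND range, and the median lay far above it. The log2 fold change of Gbp2 was 2.86 ± 0.58 (SE, adjusted p = 0.00462). Gbp3 had 1.14, 1.67 and 2.55 CPM in YND and 2.2, 8.57 and 28.2 CPM in OND, a log2 fold change of 2.85 ± 0.56 (adjusted p = 0.00415). Gbp7 had 7.05, 9.36 and 12.2 CPM in YND and 13.7, 19.9 and 50.2 CPM in OND. It was the only member for which every OND mouse lay above every YND mouse, which held for 2.08% of all tested genes, and its log2 fold change was 1.39 ± 0.29 (adjusted p = 0.00499). Gbp6, whose reads overlap Gm43302, had a log2 fold change of 1.62 ± 0.42 (adjusted p = 0.0172), with 2.14 to 6.05 CPM in YND and 2.69 to 27.7 CPM in OND. Without OND mouse 3 the call for Gbp6 was lost, at a log2 fold change of 0.81 and an adjusted p of 0.0739.

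Of the GMS-type regulators, Igtp had 15.7 to 33.8 CPM in YND, with a median of 18.4, and a median of 36.2 and a highest value of 143 CPM in OND, a log2 fold change of 1.41 ± 0.38 (adjusted p = 0.0224), and Irgm2 had 25.2, 35.0 and 49.1 CPM in YND and 36.4, 56.0 and 96.1 CPM in OND, a log2 fold change of 0.85 ± 0.23 (adjusted p = 0.0203). The ranges of both groups overlapped for both genes, and both calls were lost without OND mouse 3 (log2 fold changes of 0.72 for Igtp and 0.59 for Irgm2). The call for Igtp was also lost without YND mouse 2, 4 or 6 and that for Irgm2 without YND mouse 5, at log2 fold changes of 1.34 to 1.37 and 0.82. Irgm1 had a median of 51.5 CPM in YND and 55.7 CPM in OND, and its log2 fold change of 0.45 ± 0.22 did not pass (adjusted p = 0.216).

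Of the GKS-type effectors, Tgtp1 had 0.582, 1.14 and 1.66 CPM in YND and 0.673, 6.15 and 29.4 CPM in OND, a log2 fold change of 3.13 ± 0.66 (adjusted p = 0.00553). Its OND mice were spread from the YND range to far above it. Tgtp2, with 0 to 86 counts per OND mouse, had a log2 fold change of 2.41 ± 0.81 (adjusted p = 0.0653); its count of 0 in OND mouse 6 allows up to 0.192 CPM by counting error alone. Iigp1, the most abundant member, had medians of 278 CPM in YND and 372 CPM in OND and a log2 fold change of 0.54 ± 0.19 (adjusted p = 0.0767). With the counts of Tgtp1 and Tgtp2 summed, 7 of 9 features were called.

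**Figure D2:**
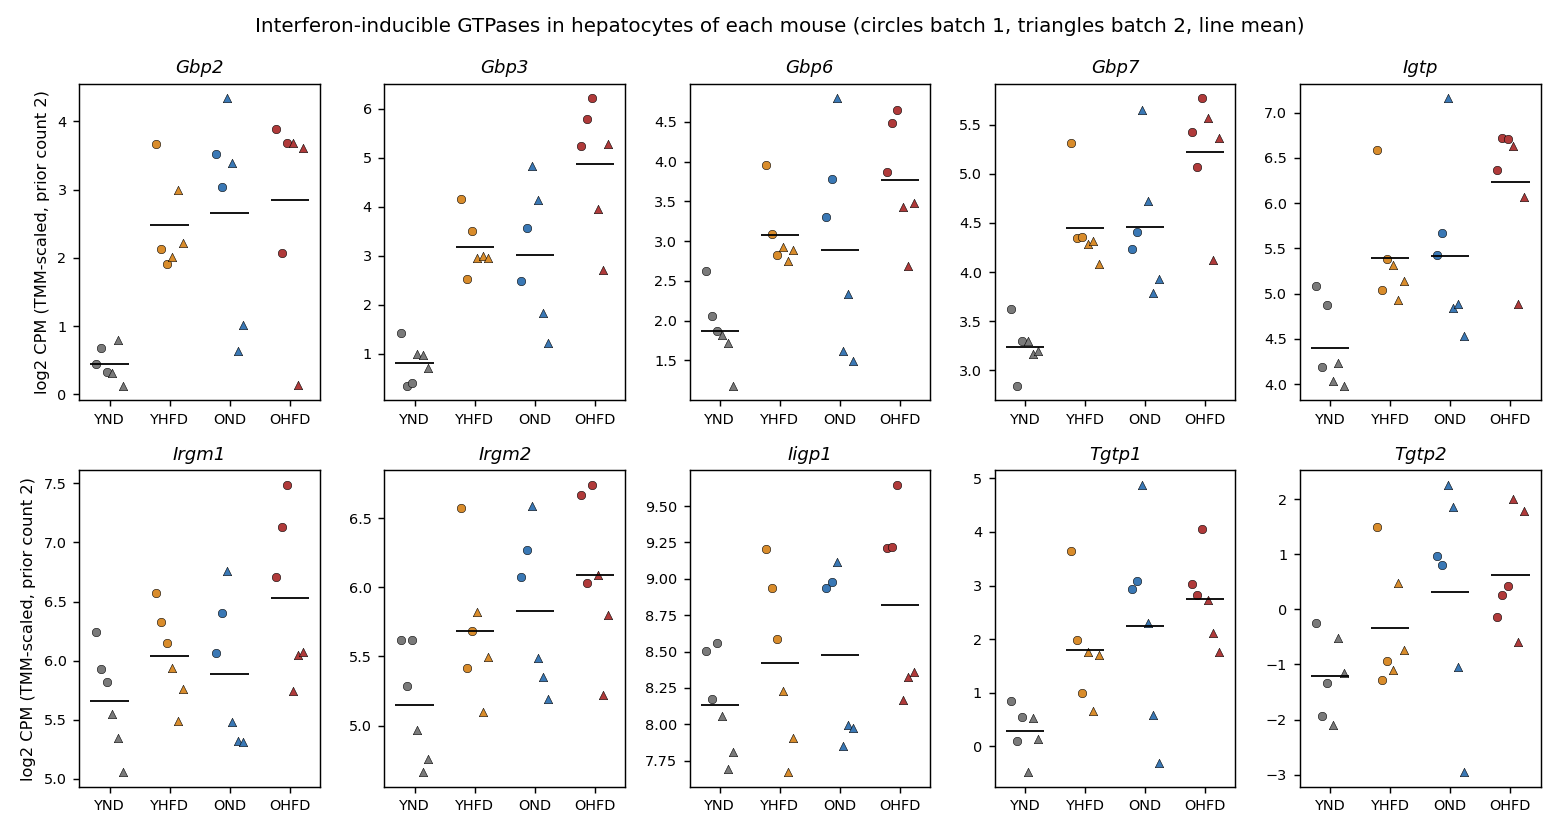
log2 CPM of each GTPase (vertical axis, TMM-scaled with a prior count of 2) in the 6 mice of each group, with circles for batch 1, triangles for batch 2 and a line for the group mean. OND mouse 3 had the highest level of its group in all 10 members, and the OND mice of Tgtp1 ran from 0.673 to 29.4 CPM, across and above the YND range.

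Diet was examined in the young mice next. In YHFD compared with YND mice, 3 of the 10 GTPases rose, Gbp2 (log2 fold change 2.27 ± 0.57, adjusted p = 0.0302), Gbp3 (2.45 ± 0.55, adjusted p = 0.0185) and Gbp7 (1.25 ± 0.29, adjusted p = 0.0195), and none fell. All 10 log2 fold changes were positive, with a median of 1.24 beside 0.01 over all tested genes, and 1.91% of all tested genes rose. Gbp2 had 3.61, 4.37 and 12.6 CPM (lowest, median and highest) in YHFD, Gbp3 had 5.59, 7.71 and 17.8 CPM, and Gbp7 had 16.8 to 39.6 CPM. For these genes and for Gbp6 (6.61 to 15.5 CPM, log2 fold change 1.24 ± 0.41, adjusted p = 0.0872) every YHFD mouse lay above every YND mouse, which held for 1.77% of all tested genes. The other members ranged from 0.3 (Iigp1) to 1.85 (Tgtp1) in log2 fold change, with adjusted p-values from 0.0993 to 0.383. The count fell to 0 without YND mouse 2 and to 1 without YHFD mouse 1, which had the highest level of its group in all 10 members, and it rose to 6 without OND mouse 3. The genes called in either direction, members included, numbered 475 with all mice and 146, 183 and 449 in these fits. The call for Gbp2 was lost in 7 of the 24 fits (without YND mouse 1, 2, 3, 4 or 6 or YHFD mouse 1 or 5), with a highest adjusted p of 0.0849, that for Gbp7 without YND mouse 2 or YHFD mouse 1, and that for Gbp3 without YND mouse 2.

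In old mice the same diet comparison called none of the 10 members. In OHFD compared with OND mice, 1.37% of all tested genes rose. The unadjusted edgeR p was under 0.05 for 3 members and for 2990 of the 13583 tested genes. DESeq2 called 1 member, among 1123 genes it called in either direction. Log2 fold changes ran from -0.47 (Tgtp1) to 1.53 (Gbp3, SE 0.52, adjusted p = 0.0926), with a median of 0.25 beside -0.01 over all tested genes. The groups overlapped for every member, where 0.471% of all tested genes had every OHFD mouse above every OND mouse. Gbp3 had 6.44, 38.1 and 74.2 CPM in OHFD against 2.2, 8.57 and 28.2 CPM in OND. OND mouse 3 had the highest level of its group in all 10 members, and without it 5 members rose in OHFD (Gbp3, Gbp6, Gbp7, Igtp and Irgm1), among 435 genes called in either direction. Without the 4 macrophage-rich mice 3 members rose, Gbp3 with a log2 fold change of 2.64, Gbp7 with 0.93 and Irgm1 with 0.88, and 401 genes in all were called in either direction, where 409 were called with all mice.

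On high-fat diet, age was compared between OHFD and YHFD mice, and Gbp3 alone rose, with a log2 fold change of 1.92 ± 0.50 (adjusted p = 0.0436), where 1.82% of all tested genes rose. The median log2 fold change of the members was 0.76 beside 0.01 over all tested genes, and the unadjusted p was under 0.05 for 5 members and for 2848 of the 13583 tested genes. Gbp3 overlapped between the groups, since OHFD mouse 5, at 6.44 CPM, lay within the YHFD range of 5.59 to 17.8 CPM, and no member had every OHFD mouse above every YHFD mouse, where 0.552% of all tested genes did. The call for Gbp3 lay close to the threshold and was lost when single mice were dropped in 17 of 24 cases, namely each of the young mice, OND mouse 2 and OHFD mice 2, 3, 4 and 6. Without OHFD mouse 5 the count was 2, among 797 genes called in either direction, where 304 were called with all mice.

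In OHFD compared with YND mice, which differ in both age and diet, all 10 GTPases rose, where 17.3% of all tested genes rose. The median log2 fold change was 2.01 beside 0.04 over all tested genes, although Tgtp1 and Tgtp2 had larger values in OND against YND. Gbp3 changed most, by 4.38 ± 0.58 (adjusted p = 4.04e-05), and its 6.44 to 74.2 CPM in OHFD lay wholly above the 1.14 to 2.55 CPM of YND. Gbp7 rose by 2.06 ± 0.29 (adjusted p = 6.98e-05) and Gbp2 by 2.92 ± 0.58 (adjusted p = 0.00109), although OHFD mouse 5 had 0.966 CPM of Gbp2, inside the YND range. Tgtp1 rose by 2.66 ± 0.65 and Tgtp2 by 2.27 ± 0.81 (adjusted p = 0.0049 and 0.0369). Iigp1 and Irgm1, at 0.69 ± 0.19 and 0.9 ± 0.21, had the smallest log2 fold changes. Gbp3, Gbp6, Gbp7 and Tgtp1 had every OHFD mouse above every YND mouse, as 2.99% of all tested genes did. The 9 members other than Tgtp2 kept their call in all 24 fits without 1 mouse, and that of Tgtp2 was lost without YND mouse 2, 3, 4, 5 or 6 or OHFD mouse 4 or 6. With the mice of these groups alone, Tgtp2, at 2 to 15 counts in YND, fell below the count filter. The other 9 members were called there, among 2094 genes called in either direction.

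**Figure D3:**
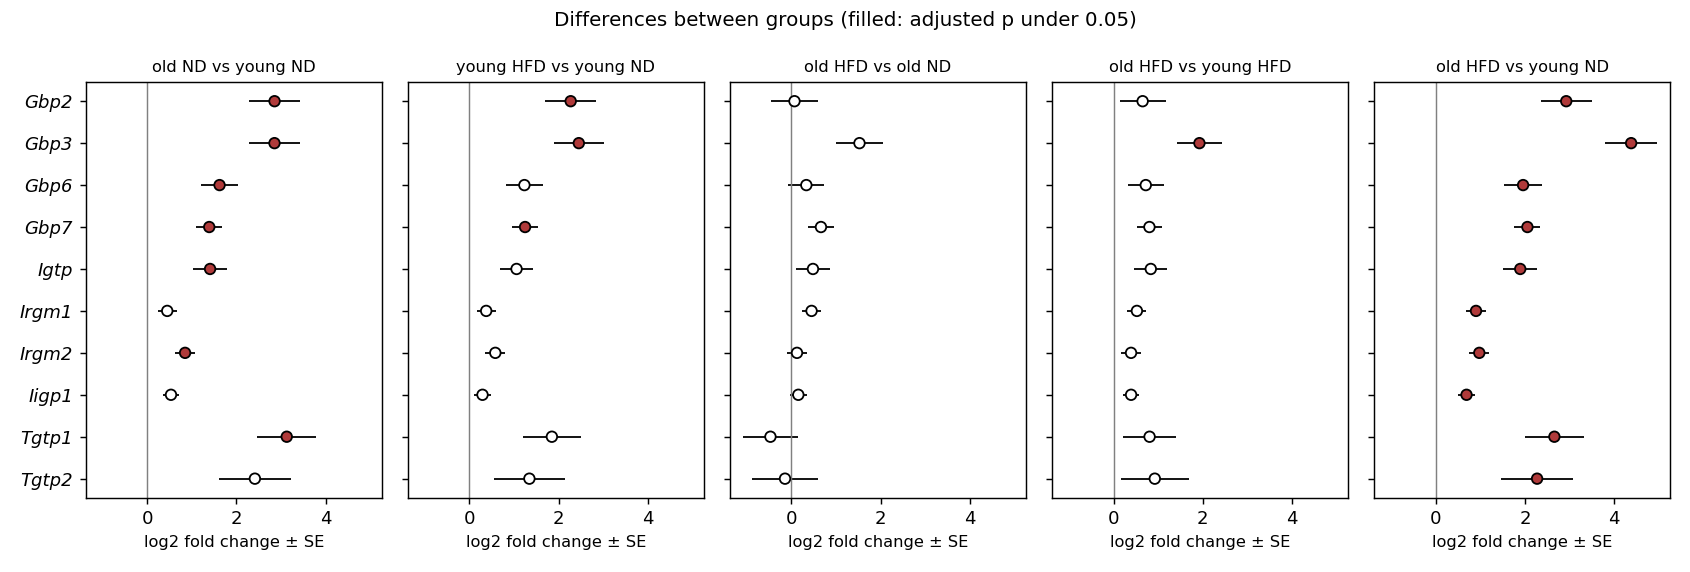
log2 fold change with its standard error for each of the 10 GTPases in 5 comparisons of groups, filled where the adjusted p was under 0.05. The filled points number 7 for OND against YND, 3 for YHFD against YND, 0 for OHFD against OND, 1 for OHFD against YHFD and 10 for OHFD against YND.

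Whether the diet difference itself depended on age was tested by an interaction term, the OHFD-OND difference minus the YHFD-YND difference. No member passed by edgeR or by DESeq2, and edgeR called no gene of all those tested and DESeq2 called 4. The unadjusted edgeR p was under 0.05 for Gbp2 and Tgtp1, 2 of the members, with interaction terms of -2.2 ± 0.76 and -2.32 ± 0.88 on the log2 scale (adjusted p = 0.531 for both), while 9.18% of all tested genes had such a p. These comparisons share groups and are not independent of each other.

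The batches were also compared within each group, as a description. The mean log2 CPM was higher in batch 1 than in batch 2 for 9 members in YND, 10 in YHFD, 9 in OND and 9 in OHFD. The median difference between batches was 0.5 in YND, 0.44 in YHFD, 0.62 in OND and 0.92 in OHFD, and batch was a term of the model. With either batch alone no member was called for OND against YND, where 93 genes in all were called in either direction in batch 1 and 2 in batch 2, beside 1155 with both batches. The log2 fold change of Gbp2 was 2.93 in batch 1 and 2.78 in batch 2, that of Gbp3 was 2.37 and 2.88, and that of Tgtp1 was 2.6 and 3.25. For OHFD against YND 8 members were called in batch 1 alone and 2 in batch 2 alone, among 919 and 617 genes called in all, beside 4100 with both batches.

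The members moved together across mice. Over the 45 pairs of members, Pearson's r of log2 CPM over 24 mice ranged from 0.33 to 0.94 with a median of 0.8, and the median was 0.69 once group and batch means were removed. Among the tested genes outside the members whose pattern was most like the members' mean z-score were Gm12250 (r = 0.928), Zbp1 (r = 0.906), Irf9 (r = 0.903) and Ifi44 (r = 0.898), over the same 24 mice, which share libraries and depth with the members. In YND and OHFD the member levels were highest in mouse 1 and mouse 3 respectively for 7 of the 10 members. In YHFD and OND they were highest in mouse 1 and mouse 3 for all 10. OND mouse 6 and OHFD mouse 5 were each lowest of their group for 7.

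The rest of the pathway was followed by role. Of the interferon ligands Ifng, Ifnb1 and Ifna4 none had enough counts to be tested, with totals of 0 to 5 counts of Ifng per group of 6 mice. Ifna4 had 0 counts in all 24 mice, which allows up to 0.00803 CPM by counting error alone. Of the receptors Ifngr1, Ifngr2, Ifnar1 and Ifnar2 and the kinases Jak1, Jak2 and Tyk2 none passed for OND against YND. In OHFD compared with YND Ifngr2, a subunit of the interferon gamma receptor, rose by 0.61 ± 0.18 (adjusted p = 0.0132), and Tyk2, a kinase of the type I receptor, fell by 0.57 on the log2 scale (SE 0.11, adjusted p = 0.00122). Over all 13583 tested genes, 1755 fell in that comparison. Tyk2 was also the 1 JAK kinase that fell in OHFD compared with OND and with YHFD, where 223 and 57 of all tested genes fell. It had 15.5 ± 3.19 CPM in OHFD and group means of 21.2 to 23.6 CPM elsewhere (n = 6 each). In OHFD compared with OND 1 of the STAT and IRF factors and 1 of the signalling inhibitors also fell. Median CPM was 126 in OND and 97.8 in OHFD for Stat3, and 14.7 and 8.73 for Socs3. Without the 4 macrophage-rich mice Ifngr2 did not pass in OHFD against YND (0.46, adjusted p = 0.0878). Of the STAT and IRF factors, those that rose in OND compared with YND included Irf1 (0.9 ± 0.19, adjusted p = 0.00522), Irf9 (the DNA-binding subunit of the ISGF3 complex, 0.61 ± 0.13, adjusted p = 0.00577), Irf8 (2.29 ± 0.52, adjusted p = 0.0081) and Stat3 (0.64 ± 0.15, adjusted p = 0.00901), while Stat2 (0.43 ± 0.15, adjusted p = 0.0801) and Irf2 did not pass there. In OHFD compared with YND Irf9 rose by 1.02 ± 0.13, Irf1 by 1.04 ± 0.19, Irf8 by 2.11 ± 0.51 and Stat2 by 0.52 ± 0.15 (adjusted p = 0.0125), while Stat3 (0.08 ± 0.15) and Irf2 did not pass. Of the 3 signalling inhibitors tested, Usp18 (1.96 ± 0.4, adjusted p = 0.00462) and Socs3 (1.86 ± 0.47, adjusted p = 0.0157) rose in OND compared with YND. OND mouse 4 had 126 CPM of Socs3, where the OND median was 14.7 CPM, and without it the log2 fold change of Socs3 was 0.99 (adjusted p = 0.146).

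Of 16 other interferon-inducible GTPases tested, 9 rose in OND compared with YND, 1 in YHFD compared with YND (Gbp8) and 12 in OHFD compared with YND, while 2 rose in OHFD compared with YHFD and 0 in OHFD compared with OND, and none fell in any of these. Mx2, Gbp9 and Gvin1 had the smallest adjusted p-values in OND, with log2 fold changes of 1.54 ± 0.32, 2.68 ± 0.56 and 2.84 ± 0.6. Gm12250 rose by 3.56 ± 0.63 in OHFD compared with YND. Of 16 interferon-gamma targets other than GTPases, 12 rose in OND compared with YND, 7 in YHFD and all 16 in OHFD, each compared with YND, while 2 rose in OHFD compared with YHFD and 0 in OHFD compared with OND. Ubd, a ubiquitin-like modifier, rose by 2.84 ± 0.6 in OND and by 4.21 ± 0.61 in OHFD, and the chemokine Cxcl9 rose by 2.41 ± 0.51 in OND. Of 18 type I interferon-stimulated genes, 11 rose in OND compared with YND, 1 in YHFD compared with YND (Xaf1), 11 in OHFD compared with YHFD, 1 in OHFD compared with OND (Ifit1) and all 18 in OHFD compared with YND. Xaf1 rose by 2.23 ± 0.36 and Irf7 by 1.77 ± 0.3 in OND. The OND counts of these lists are from the fit with both batches and all mice, which called 1155 genes in either direction. In all, 93 genes were called for OND against YND in batch 1 alone and 94 without the 4 macrophage-rich mice. Batch 2 alone called 2 genes, so that at most 2 genes of these lists could be called there. Of 10 ATG8 conjugation partners, Atg7 fell in OND, by 0.46 on the log2 scale (SE 0.12, adjusted p = 0.0199), a call that was lost without OND mouse 3 or 4, and none rose. Over all 13583 tested genes, 169 fell in OND compared with YND. Of 6 inflammasome partners 4 rose in OND, Aim2 (3.14 ± 0.77, adjusted p = 0.0134), Casp1 (2.8 ± 0.77, adjusted p = 0.024), Casp4 (2.86 ± 0.81, adjusted p = 0.0287) and Gsdmd (0.51 ± 0.16, adjusted p = 0.0493). Dropping single mice, the call for Aim2 was never lost, while that for Gsdmd was lost in 16 of 24 fits, that for Casp4 in 8 and that for Casp1 in 4, all 3 of them without OND mouse 4 (log2 fold changes of 0.42, 2.24 and 2.29). In OHFD compared with YND 4 of the 6 inflammasome partners rose, and Gsdmd did not pass (0.25, adjusted p = 0.241). Of the 10 ATG8 conjugation partners 1 fell there, beside 1755 of the 13583 tested genes. It was not Atg7, which did not pass (-0.24, adjusted p = 0.137). No gene of either list was called for YHFD against YND, OHFD against OND or OHFD against YHFD.

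Markers of other liver cells moved with some of these comparisons. In bulk RNA, fewer cells of a type and less RNA per cell cannot be told apart. All 11 Kupffer cell and macrophage markers rose in OND compared with YND, with a median log2 fold change of 3.46, as did all 4 pan-leukocyte markers, and 5 of 7 sinusoidal endothelial markers and 5 of 6 stellate cell markers. In the same comparison 3 of 5 tested T and NK cell markers, both tested B cell markers and both tested neutrophil markers rose. In OHFD compared with YND, where all 10 GTPases rose, 10 of 11 macrophage markers rose (median log2 fold change 3.09). So did 4 of 4 pan-leukocyte, 7 of 7 endothelial, 5 of 6 stellate cell and 4 of 5 T and NK cell markers. Both tested neutrophil markers and 1 of 2 tested B cell markers rose as well. Of 9 hepatocyte markers 3 fell and 1 rose, where 1755 of the 13583 tested genes fell and 17.3% rose. In YHFD compared with YND, where 3 GTPases rose, 1 of the 11 macrophage markers, 1 of 7 endothelial and 1 of 6 stellate cell markers rose and none of the 4 pan-leukocyte markers, although the median log2 fold changes of these lists were 2.21, 1.39, 1.62 and 2.2 beside 0.01 over all tested genes. No macrophage marker passed in OHFD compared with OND (median log2 fold change -0.24) or in OHFD compared with YHFD (median 1.09). In OHFD compared with YHFD 1 of 2 tested neutrophil markers rose (median 4.43), and no other listed marker passed in either comparison. The summed CPM of the 11 macrophage markers, given as lowest, median and highest, was 1.95, 28.0 and 88.1 in YND, 16.3, 116 and 229 in YHFD, 58.0, 112 and 1448 in OND and 72.7, 125 and 737 in OHFD. Within YND these sums were 1.95 to 5.1 CPM in batch 1 and 50.8 to 88.1 CPM in batch 2. Clec4f, a defining Kupffer cell marker, had a median of 5.46 CPM in YND and 22.6 CPM in OND, and Ptprc, which all leukocytes express, had 0.772 and 6.35 CPM. The hepatocyte marker Alb had a median of 93567 CPM in YND and 96139 CPM in OND, and none of 9 hepatocyte markers passed for OND against YND. Their summed CPM was 56104 in OND mouse 4 and 117694 to 168471 in the other OND mice. The 4 mice with over 500 CPM of macrophage markers were OND mice 3 and 4 and OHFD mice 4 and 6, at 958, 1448, 567 and 737 CPM. All 4 were in batch 2, so that leaving them out also changed the make-up of the batches. The mean z-score of the 10 members was 1.57 and -0.03 in these OND mice and 0.68 and 0.63 in these OHFD mice. It was -1.08 to 0.64 in the other OND mice, -0.35 to 1.6 in the other OHFD mice and -1.33 to -0.38 in YND. OND mouse 4, with the most marker RNA, ranked 2 in its group for Gbp3 (17.3 CPM), Gbp7 (26.3 CPM) and Tgtp2 (3.51 CPM) and lowest in Iigp1 (231 CPM). Without the 4 mice no member was called for OND against YND, 7 were called for YHFD against YND and 9 for OHFD against YND. The genes called in either direction in these comparisons then numbered 94, 1074 and 2605, where 1155, 475 and 4100 were called with all mice. The part of these other cells in the differences between groups was not tested.

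**Figure D4:**
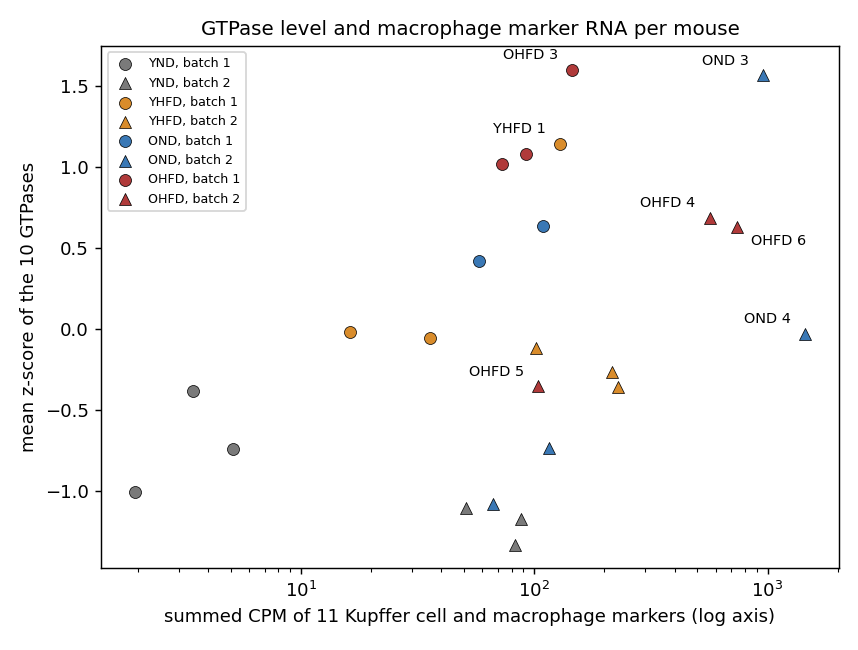
Mean z-score of the 10 GTPases (vertical axis) against the summed CPM of 11 Kupffer cell and macrophage markers (log axis), a symbol per mouse, with circles for batch 1 and triangles for batch 2. The 4 mice over 500 CPM of markers had mean z-scores of -0.03 to 1.57, and the YND mice, at 1.95 to 88.1 CPM, had -1.33 to -0.38.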

How the data were processed

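RNA was sequenced from hepatocytes of 24 male mice, isolated by collagenase perfusion and Percoll. Per the labels and the study's methods, reads were aligned to the mm10 build by the authors using 2-pass STAR (version 2.7.3a), then counted per gene by HTSeq (version 0.11.2), after FastQC (version 0.11.8). The deposited counts are raw counts per gene; the deposited FPKM were made by the authors with CuffLinks and adjusted for batch with ComBat. Strand and duplicate handling are not given in the sources used here. The labels and the methods differ on the normal diet and on the ages and substrain names, and those of the labels are used.

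Counts were tested with the edgeR (version 4.0.16) quasi-likelihood method, TMM, filterByExpr by group, and terms for group and batch over all 24 mice. Adjusted p-values are Benjamini-Hochberg over 13583 genes, with a threshold of 0.05. CPM are TMM-scaled. The standard error is the log2 fold change divided by the square root of F. On simulated counts the method was checked before use. DESeq2 (version 1.42.0) and limma (version 3.58.1, on log2(FPKM + 1) and log2(FPKM + 0.1), genes with FPKM of at least 0.1 in 6 mice) served as alternatives. Besides 11 alternative settings and 24 fits without a single mouse, 1 alternative was chosen after seeing the data, leaving out the 4 mice with over 500 CPM of macrophage markers. A further fit, which left out OND mouse 3 and OHFD mouse 5 because of their own GTPase levels, was also run after seeing the data; it is not used or reported, since that choice fixes its direction. The nearest pair of replicates differed by 16.1 times sampling noise (chi-square per degree of freedom, lowest of 60 pairs), so all were kept. Nothing in the labels pairs mice across groups. Members, lists and named genes (all members; of each list of 7 or fewer every gene, of longer lists those with the smallest adjusted p; the 5 most alike genes) were chosen with earlier results of these data known; not every gene under that rule is named, and 1 item is not reported here. Gene models were GENCODE M21 and promoters RefSeq (GRCm38.p6). Limits from a count of 0 (3 counts) cover counting error only.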

Additional observations from a re-analysis of the deposited data

Results flagged for a closer look

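Within each group of 6 mice, the highest and the lowest log2 CPM of every member was compared with the nearest other mouse, by the gap divided by the range. Of 40 combinations of member and group, 4 were past Dixon's 95% critical value for groups of 6, where chance alone flags about 1 in 20. YHFD mouse 1 stood above the other 5 mice of its group in Gbp6 (3.96 log2 CPM), Gbp7 (5.31 log2 CPM) and Igtp (6.59 log2 CPM). OHFD mouse 5, which has the fewest counts of all mice, stood below its group in Igtp (4.88 log2 CPM). Since the members move together across mice, these are not independent.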

How the results depend on the processing

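The number of GTPases called depended on the settings, and the cause of these shifts was not tested. Numbers of all genes called in either direction follow each count in parentheses, where all mice and settings as reported gave 1155 for OND against YND, 475 for YHFD against YND, 409 for OHFD against OND, 304 for OHFD against YHFD, 4100 for OHFD against YND and 0 for the interaction. OHFD against YND stayed at 8 to 10 of the 10 members (9 of 9 where fewer were tested) in all settings but batch 2 alone, with 2 (617). The count was 10 with DESeq2 (4675), no count filter (4623) and RLE size factors (4150). It was 9 without the batch term (3049), with limma at pseudocounts 1 (2639) and 0.1 (2789) and without the macrophage-rich mice (2605). In batch 1 alone it was 8 (919). With the compared groups alone, where Tgtp2 fell below the filter, it was 9 of 9 (2094). For OND against YND the 7 calls became 9 with DESeq2 (1676) or with no count filter (2053), 4 without the batch term (628), 5 of 9 with the compared groups alone (1331), 0 with limma on log2(FPKM + 1) (168), 4 on log2(FPKM + 0.1) (411), and 0 in batch 1 alone (93), in batch 2 alone (2) and without the 4 macrophage-rich mice (94), which were left out after seeing the data. For YHFD against YND the 3 calls became 6 with DESeq2 (1255), 7 with no count filter (1473), 8 of 9 with the compared groups alone (2302), 0 with limma on log2(FPKM + 1) (248), 0 in batch 2 alone (9) and 7 without the macrophage-rich mice (1074). They became 2 with limma on log2(FPKM + 0.1) (292) and in batch 1 alone (130). For OHFD against OND the 0 calls became 1 with DESeq2 (1123), 2 with no count filter (1108), 1 with limma at pseudocounts 1 (319) and 0.1 (361) and 3 without the macrophage-rich mice (401). For OHFD against YHFD the 1 call became 5 with no count filter (1235) and 0 without the batch term (116), with the compared groups alone (48), with limma on log2(FPKM + 0.1) (158), in batch 1 alone (9), in batch 2 alone (0) and without the macrophage-rich mice (94). The interaction rose from 0 to 3 members with no count filter (587). RLE size factors and summing Tgtp1 with Tgtp2 left every count but that of OHFD against YND (9 of 9 features with the sum) as it was. Leaving out each mouse gave 4 to 8 members called for OND against YND (586 to 1592 genes in all), 0 to 6 for YHFD against YND (146 to 998), 0 to 5 for OHFD against OND (84 to 823), 0 to 2 for OHFD against YHFD (40 to 813) and 9 to 10 for OHFD against YND (3314 to 4722).

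With mouse number entered as a replicate block and no batch term, OHFD against OND had 2 calls (445 over all genes), OHFD against YHFD had 0 (131), and no other count changed. The labels do not pair mice by number. Deviations of same-numbered mice correlated at 0.18 on average and at -0.05 with batch means removed, and 4 of 36 pairs were then over 0.1. With pairs running from -0.44 to 0.40, these averages cannot tell whether same-numbered mice were handled together. Under the block the log2 fold change of Tgtp1 for OHFD against OND turned to 0.17 and the interaction of Iigp1 to 0.060.

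Signs turned only for values that had not passed the test, in OHFD against OND, OHFD against YHFD and the interaction. For OHFD against OND, Tgtp1 became 0.030 and 0.25 with limma (pseudocounts 1 and 0.1), 0.36 in batch 1 alone and 0.92 without the macrophage-rich mice. In batch 2 alone Gbp6 became -0.034, Irgm2 -0.0065, Iigp1 -0.034 and Tgtp2 0.297. For OHFD against YHFD, Tgtp2 became -0.17 in batch 1 alone and -0.31 without the macrophage-rich mice, and Gbp2 became -0.083 there. The interaction of Gbp3 became 0.45 with limma on log2(FPKM + 1) and 0.18 without the macrophage-rich mice, that of Iigp1 0.0026 without batch and 0.097 without the macrophage-rich mice, and that of Irgm1 -0.33 in batch 2 alone. Leaving out single mice, the interaction ran from -0.77 to 0.12 for Igtp, -0.25 to 0.104 for Iigp1 and -0.074 to 0.38 for Irgm1, and OHFD against OND from -0.14 to 0.56 for Gbp2, -0.69 to 0.74 for Tgtp1 and -0.496 to 0.31 for Tgtp2.

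By CPM per kilobase of exons in place of FPKM, Iigp1 stayed first in all 4 groups and 19 of the 40 ranks were the same. Irgm1, ranked 2 by FPKM, ranked 4 there in all 4 groups, below Igtp and Irgm2. Low counts limit Gbp2 (17 to 28 counts in YND), Gbp3 (17 to 54), Tgtp1 (11 to 35) and Tgtp2 (2 to 15).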
